A study of Mus musculus with 4 samples.

Results

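The mitotic kinases examined here are 9 genes taken by symbol from the 32285 genes of the count tables: Plk1 and Plk4 of the polo-like kinases, Aurka, Aurkb and Aurkc of the Aurora kinases, the checkpoint genes Bub1, Bub1b and Ttk, and Nek2. They were measured by single-cell RNA-seq of mouse testes at postnatal day 15, when the first wave of germ cells spans spermatogonia to pachytene spermatocytes. The 4 pups, 2 of them wild type and 2 Meioc-null, had a C57BL/6N background and gave 1 testis each, with 1 littermate pair per batch. The null pups carried the Meioc tm1.1Dpc allele, a constitutive null. Per the study's methods, pups of both genotypes in these libraries also carried Hspa2 tm1Dix (heterozygous) and a ROSA26 tdTomato reporter (homozygous) whose floxed stop was intact. Much of the interstitium was discarded during dissociation, so somatic cells stand for what remained around the tubules. With 2 mice per genotype, the p-values rest on the spread between 2 mice (2 residual degrees of freedom) together with a spread that edgeR borrows over genes, and an exact permutation test of 2 against 2 could not go below 0.333.

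Mitotic kinases drive a dividing cell from G2 into mitosis and hold it there until every chromosome is attached. PLK1 and Aurora A mature the centrosomes and build the spindle, Aurora B corrects wrong attachments from the centromere, and TTK, BUB1 and BUBR1 (the product of Bub1b) form the checkpoint that delays anaphase. Spermatogonia divide by mitosis, whereas spermatocytes pass through a long prophase with homolog pairing and recombination before they divide again, and in mouse a timely switch depends on MEIOC, a germ-cell protein that acts with the RNA helicase YTHDC2.

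After filtering on detected genes (more than 1000), mitochondrial UMIs (under 10%) and doublets, between 5644 and 7505 cells per library were kept of 11986 to 16486 barcodes, with median depths of 11698.5 to 14446 UMIs per cell; any pair of libraries shared 7 to 16 barcodes. Wild-type cells alone defined the clusters, with the kinases and their partners barred from the clustering, and all cells were then placed on them. Every Meioc-null cell thus received a wild-type cluster, even if its state was one that wild type lacks. The study described a separate cluster of Meioc-null spermatocytes, mostly in G2/M phase. Where such cells fell among the clusters used here was not tested. Cluster 1 was undifferentiated spermatogonia-like, clusters 2 to 5 were differentiating spermatogonia-like (the leading genes of cluster 5 by fold were Cenpa, of the centromeric histone, and Plk1 itself, so the height of Plk1 there is no finding), clusters 7 and 8 were preleptotene-like, clusters 9 to 11 were early spermatocyte-like and cluster 12 was pachytene spermatocyte-like. Cluster 6, a side branch of cluster 4, and a germ cluster of low depth stayed unnamed. Cluster 7 took its name narrowly, since its cells had a UMI for preleptotene markers in 64.0% on average and for differentiating markers in 60.0%. Clusters 8 to 10 held 187 to 1465 cells per library, and clusters 11 and 12 held cells of the wild-type libraries only. The study's own clustering did assign some Meioc-null cells to pachytene spermatocytes, so this absence holds for the placing used here. Meioc itself, read by 3′ tags that may lie outside the deleted part and so check no label, stood in cluster 8 at 630 and 681 UMIs per 1000000 UMIs for the wild-type mice and at 672 and 641 for the Meioc-null mice.

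Several of the kinases hold promoter letters that are known from G2/M genes, so the stretches that hold them are shown here before the values. The cell cycle genes homology region (TTTGAA, or its second form TTCGAA) is known as the site through which the MuvB complexes act, and the CCAAT box as a site of NF-Y. In RefSeq promoters (250 bases before to 50 after the start, GRCm38.p6), entries were found for 8 of the 9 kinases, all but Aurkb. Searched on both strands, TTTGAA was in 4 of the 8 entries against 17.9% of 32851 promoters, TTCGAA in 2 of 8 against 1.56%, and CCAAT in 7 of 8 against 37.4%; a hexamer of either form together with a CCAAT box was in 5 of 8 against 7.52%. Plk1, Aurka, Bub1, Bub1b and Ttk held both kinds, Nek2 and Aurkc held CCAAT alone, and the Plk4 entry held neither. Stretches are given for 4 kinases that took different courses over the stages below in wild type. Plk1 was lowest in cluster 8, Aurka lowest in cluster 8 and highest in cluster 11, Bub1 highest in cluster 9 and Nek2 highest in cluster 11. The last 100 bases before the start are read 5′ to 3′ on the gene's strand, with CCAAT boxes in capitals:
Plk1 (chr7:122159335-122159434, + strand): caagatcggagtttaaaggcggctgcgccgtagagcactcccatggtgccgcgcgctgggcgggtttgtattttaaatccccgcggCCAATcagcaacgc
Aurka (chr2:172370571-172370670, - strand): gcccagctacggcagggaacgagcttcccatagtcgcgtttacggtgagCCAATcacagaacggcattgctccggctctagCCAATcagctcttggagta
Bub1 (chr2:127831860-127831959, - strand): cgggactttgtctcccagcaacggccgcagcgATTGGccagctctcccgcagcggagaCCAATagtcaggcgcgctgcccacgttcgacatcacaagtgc
Nek2 (chr1:191821373-191821472, + strand): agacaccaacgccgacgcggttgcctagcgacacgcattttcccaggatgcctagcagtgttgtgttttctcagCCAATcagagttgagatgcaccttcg

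For each of the 5 kinases with a hexamer, the one nearest the start (capitals) is shown in a window of 30 bases; Bub1b also held TTCGAA at position -188 from the start, outside that window:
Plk1 (chr7:122159453-122159482, + strand): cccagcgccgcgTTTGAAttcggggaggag
Aurka (chr2:172370521-172370550, - strand): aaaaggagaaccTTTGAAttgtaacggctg
Bub1 (chr2:127831828-127831857, - strand): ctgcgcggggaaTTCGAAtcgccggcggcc
Bub1b (chr2:118598231-118598260, + strand): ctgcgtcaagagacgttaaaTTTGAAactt
Ttk (chr9:83834684-83834713, + strand): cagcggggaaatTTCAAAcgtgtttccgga
A match describes letters only. Bub1 held the second form, TTCGAA, where Plk1 and Aurka held TTTGAA. How these letters relate to the courses over the stages below was not tested.

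Levels are given as CPM, the UMIs of a gene per 1000000 UMIs of a library's cells in a cluster, and are compared between cell groups for 1 gene, never between genes, since tags were counted at the 3′ end. The clusters were made from these cells, so the course over stages is a description without a test. Plk1, the kinase of mitotic entry and spindle assembly (chr7:122159439-122169873), was highest in cluster 5, at 166 and 185 CPM in the wild-type libraries. Cluster 7 held 135 and 128, and cluster 8 held 2.33 and 2.77. Between those neighbouring clusters the libraries did not come near each other, and cluster 8 was the lowest of all germ clusters for Plk1 in wild type. From there it stood at 5.65 and 5.95 (cluster 9), 19.0 and 19.0 (cluster 10), 21.5 and 20.6 (cluster 11), then 13.6 and 13.8 (cluster 12).

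Aurka, the spindle pole Aurora (chr2:172356190-172370535), was low in clusters 8 and 9 and high again after them in wild type. Its level was 70.4 and 76.5 CPM in cluster 5, against 7.83 and 4.62 (cluster 8) and 14.2 and 12.9 (cluster 9). Cluster 10 then held 57.5 and 52.4, and cluster 11, the highest of all for this gene, 112 and 98.2. Aurkb, the kinase of the chromosomal passenger complex (chr11:69045647-69051664), stayed low after cluster 7: clusters 1 to 6 held 46.6 to 96.5, cluster 7 held 35.7 and 31.3, and clusters 8 to 12 held 3.01 to 4.53. Those last 5 clusters could not be ordered, as most neighbours in their order overlapped. Aurkc, the germ-line relative of Aurkb (chr7:6995300-7003091), had few UMIs throughout, with 1138 over all kept cells of the 4 libraries. Among clusters 1 to 12 its highest wild-type values were 8.37 and 6.85 (cluster 2) and 9.08 and 3.16 (cluster 12). The low-depth cluster had 2.81 and 10.4, from 1 and 13 UMIs, and overlapped both. Aurkc passed the count filter in 5 of the 14 groups of cells tested between genotypes.

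The centrosome kinases Plk4, which licenses centriole duplication (chr3:40800019-40816883), and Nek2, which separates centrosomes (chr1:191821444-191833050), took other courses. By the ratio of highest to lowest cluster mean, Plk4 moved least of the 9: its wild-type means ran from 72.9 in cluster 1 to 183 in cluster 5, with 165 and 163 in cluster 8, where Plk1 and Aurka were lowest. Nek2 was 88.2 and 77.4 CPM in cluster 5, then 46.2 and 46.8 (cluster 9), 118 and 115 (cluster 10), 217 and 208 (cluster 11) and 205 and 201 (cluster 12). The 3 latest wild-type clusters were therefore the 3 highest for Nek2, and none of their ranges overlapped. Nek2 overlaps the antisense gene Gm38037 by 550 bases; the kit keeps strand, and the counting by strand was not checked here.

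Among the checkpoint kinases, Bub1, the kinetochore kinase that marks centromeric histone H2A (chr2:127801122-127831865), peaked in early spermatocytes. It held 100.3 and 88.3 CPM in cluster 7, followed by 266 and 260 (cluster 8), 680.5 and 694 (cluster 9), 229 and 248 (cluster 10) and 142 and 154 (cluster 11). Cluster 9 stood apart from every other cluster for Bub1, in both wild-type libraries. Bub1b, whose product BUBR1 holds back the anaphase-promoting complex (chr2:118598211-118641591), was highest in cluster 2 (138 and 142) and lowest in cluster 10 (35.4 and 36.2). Ttk, the kinase that starts the checkpoint at KNL1 (chr9:83834689-83872389), varied between 30.9 and 31.2 (cluster 9) and 97.0 and 82.8 (cluster 6).

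**Figure D1:**
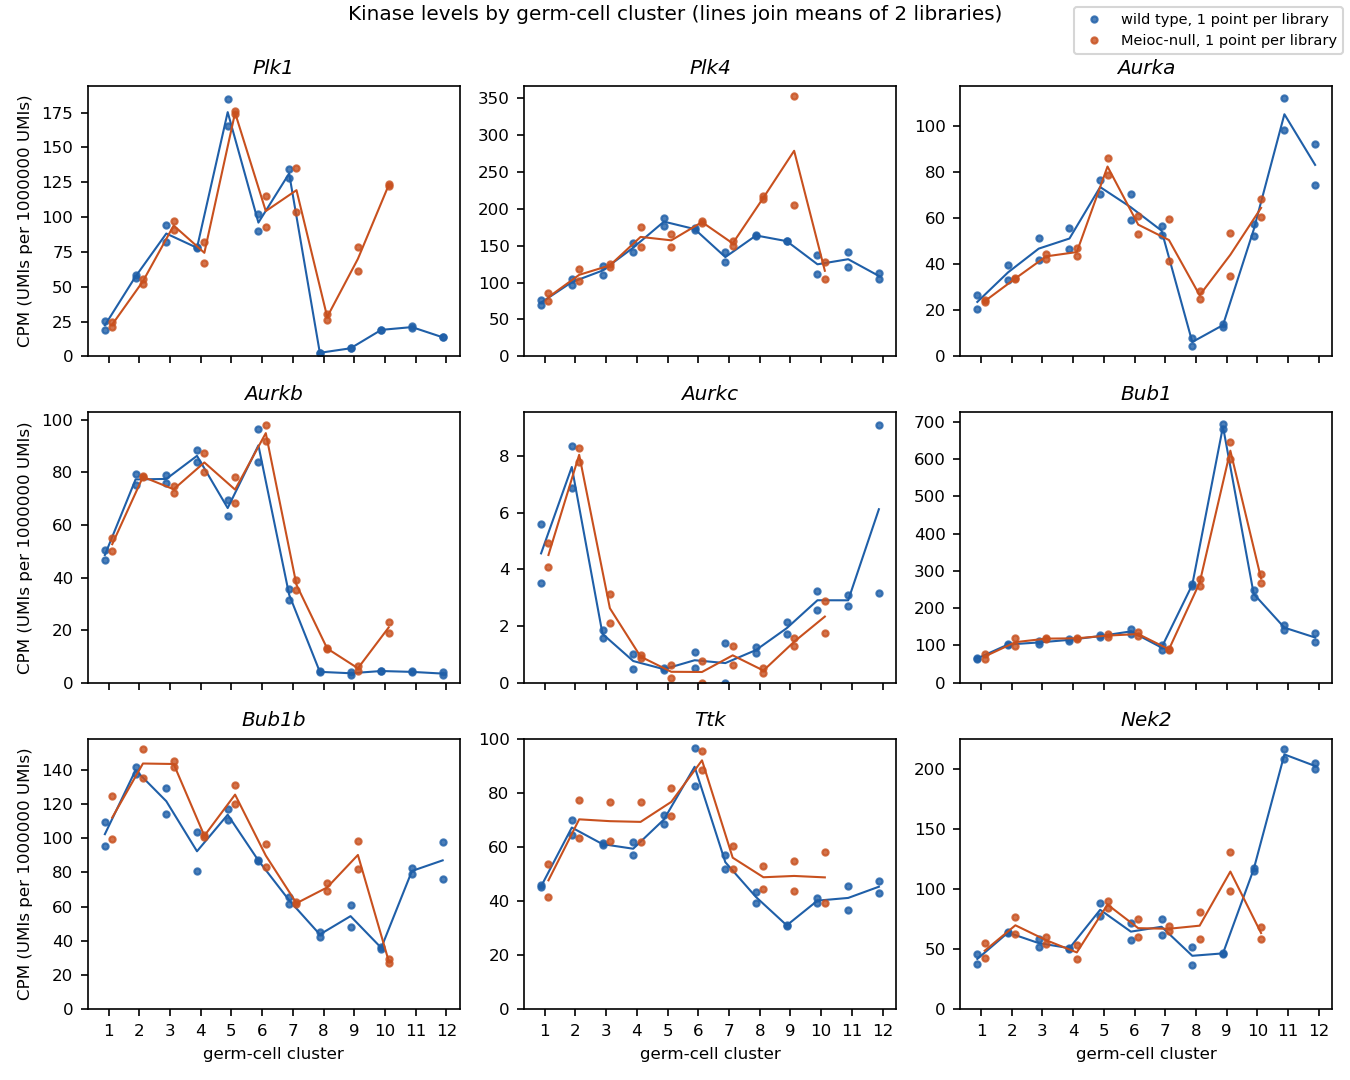
CPM (UMIs per 1000000 UMIs, vertical axis, linear and different for each gene) of the 9 kinases in germ-cell clusters 1 to 12, with 1 point per library and lines through the mean of 2 libraries, wild type in blue and Meioc-null in orange; clusters 11 and 12 have no Meioc-null cells. The genotypes lie together up to cluster 7, and in cluster 8 Plk1 stood at 2.33 and 2.77 in wild type against 30.2 and 26.5 in Meioc-null.

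Over the 26 sums of the wild-type libraries (13 germ clusters, 2 libraries), the kinases did not form a single pattern. Pearson correlations of log2(CPM + 1) between pairs ran from -0.75 (Plk4 and Aurkc) to 0.82 (Plk1 and Aurkb), with 0.64 for Plk1 and Aurka and -0.63 for Plk1 and Bub1; the points share libraries and depth, so these are descriptions. The sum of the 9 kinases adds their CPM, so a gene with more UMIs weighs more in it. In wild-type cluster 9 the mean was 687 CPM for Bub1 against 5.80 for Plk1, so Bub1 weighs most there. The 5 genes whose course was most like this sum, among 16962 compared, were Vkorc1l1 (0.79), Knl1 (0.78), Snupn (0.78), Uap1 (0.76) and Uimc1 (0.75). Those most like Aurkc were Gm9732 (0.86), Shisa3 (0.85), Gm32857 (0.84), Ugcg (0.84) and Siah2 (0.84).

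Somatic cells held little of any of the 9. In the Sertoli, peritubular myoid and interstitial fibroblast cells the highest single value was 20.4 CPM, for Plk4 in the fibroblasts of Meioc-null library 1; Leydig and other somatic cells were too few in at least 1 library to be compared. Plk1 there ran from 1.22 to 9.36. In bulk sums such as these, fewer positive cells and less RNA per cell cannot be told apart, and the shares of cells below speak to that.

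The genotypes were compared within each cluster to ask where the loss of MEIOC changed kinase transcripts. A gene was called at a Benjamini-Hochberg adjusted p under 0.05 in edgeR's quasi-likelihood test and an absolute log2 fold change (wild type over Meioc-null, so that negative values are higher in Meioc-null) over 0.1. The borrowed part was worth a median of 10.4, 14.8 and 22.2 degrees of freedom per gene in clusters 8, 9 and 10. In the fits with the littermate pair as a block, and in several of those without 1 library, it was infinite for the median gene, so that those p-values measure a spread common to the genes and hardly that of these mice. Without 1 library, 1 genotype is a single mouse that is assumed to vary like the others. In clusters 1 to 7, 0 of 59 kinase tests on all 4 libraries were called, by edgeR or by DESeq2. Of these tests 1 had an unadjusted p under 0.05 in edgeR, and their log2 fold changes ran from -0.55 to 0.25. Of all genes, 0%, 0.00697%, 0.0726%, 0.149%, 0.0443%, 0.00860% and 0.734% were called in clusters 1 to 7 in that order. In the low-depth cluster 0 of 8 tests were called and in the 3 somatic types 0 of 19, again with both tools, with 0 and 1 at an unadjusted p under 0.05. Among all genes 0.0152% were called in the low-depth cluster and 0.729%, 0.111% and 0.0477% in Sertoli, peritubular myoid and fibroblast cells. Cluster 7 carried 135 and 128 CPM of Plk1 in wild type against 104 and 135 in Meioc-null, with overlapping groups (log2 fold change 0.17 ± 0.15 SE, adjusted p = 0.805).

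Cells of the 2 genotypes placed in 1 cluster were not alike in their stage markers, least so in cluster 8. Stra8, the retinoic acid-induced gene of meiotic entry, was found after thinning to 5000 UMIs in over 99% of the cells of every library in cluster 8. In cluster 9 its share was 67.6% and 53.5% of wild-type cells against 99.4% and 99.2% of Meioc-null cells, and in cluster 10 it was 7.75% and 9.003% against 89.0% and 83.1%. The 6 preleptotene markers, which include Stra8 and Meioc, summed to 4760 and 5918 CPM in wild type against 4925 and 5089 for Meioc-null in cluster 8, where the 8 early spermatocyte markers summed to 3282 and 2944 against 2879 and 2687 (6 of 8 lower in both Meioc-null libraries). Their sum was 1397 and 1371 against 2817 and 2933 one cluster later, and 766 and 928 against 1436 and 1516 in cluster 10, with 5 of the 6 higher in both Meioc-null libraries than in either wild-type one in each of those clusters. The 7 markers of differentiating spermatogonia were also higher in sum in Meioc-null. They stood at 811 and 764 against 858 and 833 CPM in cluster 8 (4 of 7 higher in both Meioc-null libraries than in either wild-type one), at 350.1 and 294 against 581 and 561 in cluster 9 (6 of 7) and at 288 and 263 against 938 and 827 in cluster 10 (4 of 7). In cluster 10 the 8 pachytene markers stood at 790 and 694 against 272 and 285 (5 of 8 lower, 2 higher). The early spermatocyte markers were divided there, with 4 of 8 higher and 4 lower, and in cluster 9, with 3 higher and 4 lower. Their sum was higher in both Meioc-null libraries in these clusters, unlike in cluster 8. It was 5109 and 4851 CPM in wild type against 5844 and 5621 in cluster 9, and 4913 and 4430 against 6101 and 5501 in cluster 10. In clusters 8 and 9, 5 of the 8 pachytene markers were lower and 1 was higher. In cluster 8, 1 of the 7 differentiating markers was lower, and of the 6 preleptotene markers 2 were higher and 1 lower. How many of all genes separated the libraries in this way was not counted. Of all genes tested, 15.0%, 36.7% and 53.8% were called in clusters 8, 9 and 10. Genotype differences in clusters 8 to 10 therefore compare cells that also differ in these markers, and the part of stage in them was not tested.

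In cluster 8 the entry and spindle kinases were higher in Meioc-null. There 5 of the 8 kinases tested were called, all higher in Meioc-null, where 9.04% of all genes were called in that direction, 5.94% in the other and 15.0% in either. That background moved with the fit: with the littermate block 32.6% of genes and 6 of 8 kinases were called, and without 1 library 5.25% to 7.58% of genes and 4 or 5 of 8 kinases. Plk1 had 2.33 and 2.77 CPM in wild type against 30.2 and 26.5 in Meioc-null, an 11.1-fold ratio of the means. No wild-type value came near a Meioc-null one, and the log2 fold change was -3.41 ± 0.20 SE (edgeR quasi-likelihood test, adjusted p = 4.77e-06).

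Aurka followed with 7.83 and 4.62 CPM in wild type against 28.2 and 24.9 (log2 fold change -2.03 ± 0.20 SE, edgeR adjusted p = 8.33e-05). Aurkb stood at 4.34 and 3.92 against 13.1 and 12.9 (-1.59 ± 0.22 SE, edgeR adjusted p = 0.000606). For both Auroras the groups were well separated at low levels. Bub1b was 45.0 and 42.4 in wild type against 73.6 and 68.8 in Meioc-null (-0.65 ± 0.11 SE, edgeR adjusted p = 0.00203), and Nek2 was 52.0 and 36.9 against 81.0 and 58.1 (-0.58 ± 0.15 SE, edgeR adjusted p = 0.0272).

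Bub1, Ttk and Plk4 were not called in cluster 8. Bub1 had 266 and 260 CPM in wild type against 278 and 259 in Meioc-null (log2 fold change 0.03 ± 0.11 SE), and in both genotypes this was above its level in cluster 7. Plk4 had 165 and 163 against 213 and 217, groups that did not overlap, and the test missed the limit (-0.33 ± 0.11 SE, edgeR adjusted p = 0.0576); with the littermate pair as a block Plk4 was called (adjusted p = 0.00124). Where cells sit bears on cluster 8: when all genes called in any cluster were left out of the placing, Plk1 went to -1.41 and Aurka to -0.92 with both still called, Bub1b (-0.06) and Nek2 (-0.27) were no longer called, and Bub1 was called at 0.36. Without doublet removal Plk1 stood at -2.39 and Aurkb at -0.91. The Nek2 call was also lost without wild-type library 2 (-0.41) or without Meioc-null library 1 (-0.40).

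Cluster 9, the Bub1 peak, had the most kinases called. Of the 9 tested, 6 were called and all 6 were higher in Meioc-null, against 19.9% of all genes called in that direction, 16.8% in the other and 36.7% in either. Plk1 was 5.65 and 5.95 CPM in wild type against 78.6 and 61.4 in Meioc-null, a 12.1-fold ratio (log2 fold change -3.51 ± 0.18 SE, edgeR adjusted p = 2.01e-09). Across the alternatives that left out 1 library each it ran from -3.61 to -3.41, and with called genes left out of the placing it was -3.52.

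Aurka held 14.2 and 12.9 CPM in wild type against 53.4 and 34.7 in Meioc-null (-1.64 ± 0.19 SE, edgeR adjusted p = 9.82e-06). Nek2 held 46.2 and 46.8 against 131 and 98.4 (-1.24 ± 0.13 SE, edgeR adjusted p = 3.78e-06). For both genes, Meioc-null library 1 was the higher of its pair. The checkpoint genes differed less: Bub1b was 60.9 and 47.9 against 98.7 and 81.7 (-0.69 ± 0.13 SE, edgeR adjusted p = 0.000733) and Ttk was 30.9 and 31.2 against 54.8 and 43.9 (-0.60 ± 0.14 SE, edgeR adjusted p = 0.00386).

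Bub1 went the other way without being called, at 680.5 and 694 CPM in wild type against 599 and 645 in Meioc-null (0.19 ± 0.15 SE, edgeR adjusted p = 0.341), and with the littermate block it was called (adjusted p = 0.0493). Aurkb, at 4.17 and 3.03 against 6.40 and 4.59, was not called (-0.59 ± 0.37 SE, edgeR adjusted p = 0.228), and with called genes left out of the placing it was (-0.996, adjusted p = 0.0281). Aurkc had 56 UMIs over the 4 sums and was not called.

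Plk4 in cluster 9 was spread unevenly over cells. Its level was 156 and 156 CPM in wild type against 352 and 205 in Meioc-null (-0.76 ± 0.20 SE, edgeR adjusted p = 0.0164), and the size rested on Meioc-null library 1, since the log2 fold change was -0.41 without it and -1.04 without Meioc-null library 2, each against a single Meioc-null mouse. Without wild-type library 1 or 2 it was -0.72 and -0.80, close to the full value, and missed the limit (adjusted p = 0.0907 and 0.102). After each cell was thinned to 5000 UMIs, cells with 5 or more Plk4 UMIs, a limit chosen after the values were seen, made up 0.541% and 0.347% of wild-type cells and 6.97% and 3.93% of Meioc-null cells. These cells held 56.0% and 26.7% of the Plk4 UMIs of the Meioc-null libraries, and a single cell of library 1 held 180. Leaving out cells by their own Plk4 count lowers the level by construction. The remaining cells held 143 and 149 CPM in wild type against 194 and 172 in Meioc-null, and the log2 ratio of mean thinned levels was -0.32 in place of -1.07, both without a test. The cells with 5 or more Plk4 UMIs had a lower median depth than the other cells of the cluster. It was 8757 against 11386 UMIs in Meioc-null library 1 and 9583 against 13390 in library 2. The part of depth in the result was not tested. A UMI for Plk4 was found in 48.6% and 50.9% of thinned wild-type cells and 62.6% and 53.6% of Meioc-null cells, against 3.97% to 6.71% of peritubular myoid cells (77.3% and 73.5% against 84.2% and 82.5% unthinned). Taken as ratios, though not as percentage points, the genotypes thus differed more in the upper tail than in the share of positive cells. Cells of 5 or more UMIs were also commoner in Meioc-null in cluster 8 (2.91% and 2.72% against 0.265% and 0.798%) but not in cluster 10 (0.552% and 0% against 0.352% and 0.554%).

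**Figure D2:**
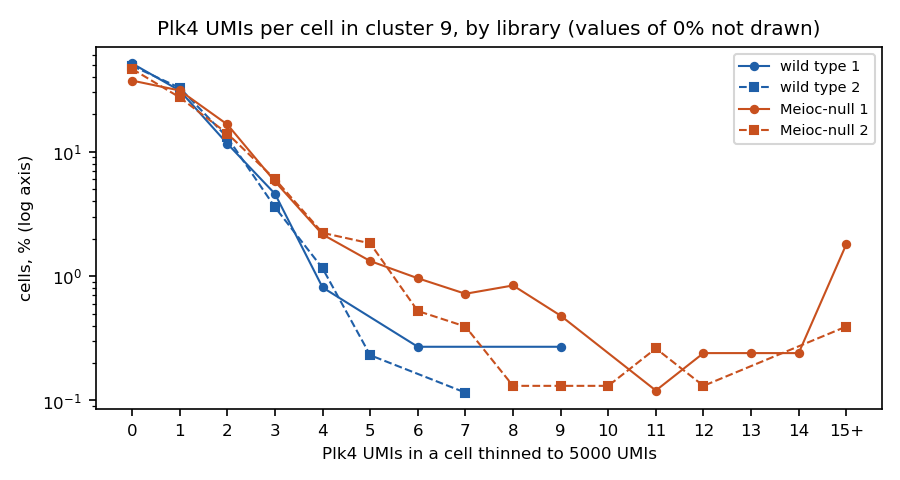
Share of cluster 9 cells (vertical log axis, %) by the number of Plk4 UMIs in a cell thinned to 5000 UMIs (horizontal axis), 1 line per library, with points at 0% not drawn. The lines run close together up to 3 UMIs, and beyond that Meioc-null libraries (orange) extend to 15 or more while no wild-type cell (blue) passes 9.

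In cluster 10, the latest cluster that all 4 libraries shared and the one where Stra8 differed most between genotypes, kinases were called on both sides, in shares no higher than those of all genes. Of 9 tested, 2 were called higher in Meioc-null, where 27.8% of all genes were, and 2 were called higher in wild type, where 26.1% were; 53.8% of all genes were called there in either direction. Plk1 was 19.0 and 19.0 CPM in wild type against 122 and 124 in Meioc-null, close to its level in cluster 7 (log2 fold change -2.65 ± 0.13 SE, edgeR adjusted p = 5.08e-14). Aurkb was 4.36 and 4.53 against 23.2 and 18.8 (-2.17 ± 0.26 SE, edgeR adjusted p = 2.44e-07).

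Nek2 was on the other side: it was 118 and 115 CPM in wild type against 68.4 and 58.4 in Meioc-null (0.92 ± 0.12 SE, edgeR adjusted p = 4.00e-07). Both wild-type libraries held more Nek2 in cluster 10 than in cluster 9, and both Meioc-null libraries held less. Bub1b was 35.4 and 36.2 against 29.3 and 27.2 (0.38 ± 0.15 SE, edgeR adjusted p = 0.0383); this call was lost in DESeq2 and whichever library was left out, while the log2 fold change stayed between 0.33 and 0.45. Aurka, at 57.5 and 52.4 against 68.4 and 60.4, was not called (-0.20 ± 0.12 SE, edgeR adjusted p = 0.179), nor were Plk4 (0.13 ± 0.11 SE), Ttk (-0.22 ± 0.15 SE) or Aurkc (0.46 ± 0.50 SE). Bub1 was 229 and 248 against 292 and 268 (-0.19 ± 0.12 SE, edgeR adjusted p = 0.178), and with the littermate block it was called (adjusted p = 0.0163). Ttk had -0.46 without Meioc-null library 2, a fit with 1 Meioc-null mouse and an infinite borrowed part.

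**Figure D3:**
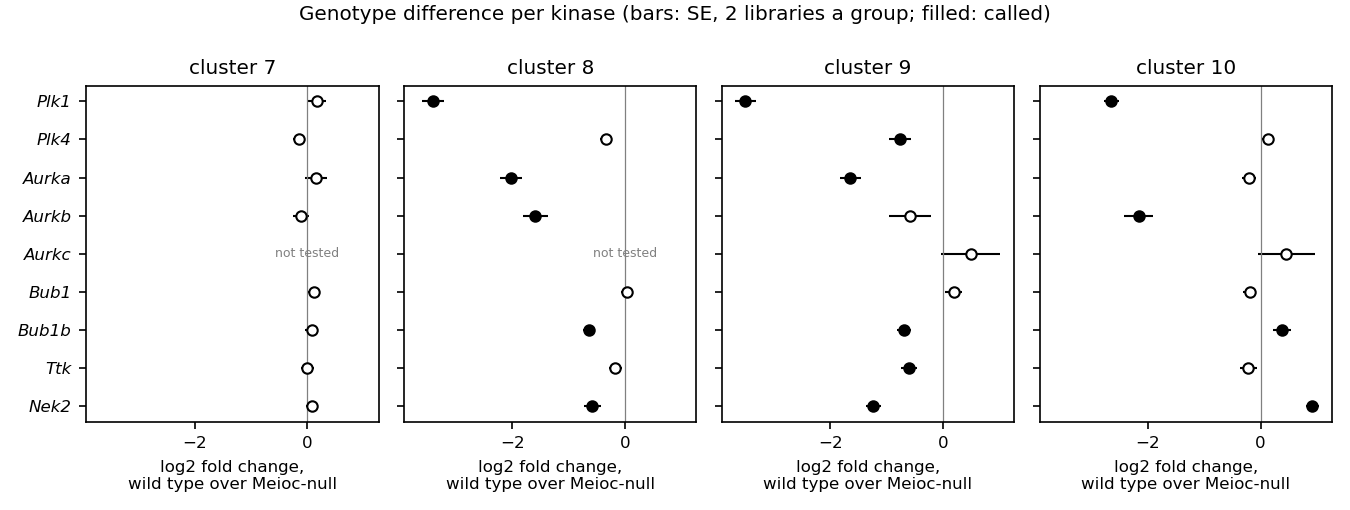
Log2 fold change of each kinase, wild type over Meioc-null (horizontal axis; left of 0 is higher in Meioc-null), in clusters 7 to 10; bars are the SE from edgeR over 2 libraries per genotype, filled points were called. Plk1 moves from 0.17 in cluster 7 to -3.41, -3.51 and -2.65 in clusters 8, 9 and 10, and Nek2 changes side between clusters 9 and 10.

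Whether the genotype effect differed between stages was tested directly, with the mouse as a term. The value is the log2 fold change in early spermatocytes minus that in spermatogonia, so that a negative value is a shift toward Meioc-null. Between early spermatocytes (clusters 9 to 11) and spermatogonia (clusters 1 to 5), 5 of 9 kinases were called, where 43.0% of all genes were (21.9% toward Meioc-null). Since only wild type had cluster 11, where Aurka and Nek2 peak, the test was repeated on clusters 9 and 10 alone, a choice made after seeing the data; 32.0% of all genes and again 5 of 9 kinases were called. Plk1 and Aurkb were called in both, at -2.42 ± 0.11 SE and -1.14 ± 0.16 SE with cluster 11 (edgeR adjusted p = 2.61e-09 and 5.40e-05) and at -2.82 and -1.21 without it. The others depended on it: Nek2 was 0.54 with cluster 11 and -0.22 without, Aurka 0.32 and -0.60, Bub1 -0.51 and -0.12, Bub1b -0.14 and -0.58, Ttk -0.20 and -0.34 and Aurkc 0.95 and 0.81. Of these, Nek2, Bub1 and Aurkc were called only with cluster 11, and Aurka, Bub1b and Ttk only without it, while Plk4 was called in neither (-0.68 and -0.70). The genotypes were also mixed differently over clusters 9 and 10. The wild-type libraries held 375 and 887 cells in cluster 9 and 293 and 733 in cluster 10. The Meioc-null libraries held 871 and 773, and 187 and 262. The part of this mix in the values was not tested. Leaving out 1 library at a time from the test with cluster 11 ended the Aurkc call without wild-type library 2 (0.64) or either Meioc-null library (0.96 and 0.999). Without either Meioc-null library the borrowed part was infinite and 1 Meioc-null mouse was left; the values there were 0.52 for Aurka without library 1, and -0.31 and -1.001 for Plk4 without library 1 and 2.

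A further test added after the values were seen asked whether the effect differed between clusters 9 and 10. It called 7 of 9 kinases against 33.0% of all genes. Its borrowed part was infinite, so the SEs and calls describe a spread common to the genes and not that between the 4 mice. The effect moved toward wild type from cluster 9 to cluster 10 by 2.13 ± 0.14 SE for Nek2, 1.40 ± 0.19 SE for Aurka, 1.08 ± 0.17 SE for Bub1b, 0.84 ± 0.22 SE for Plk1 and 0.83 ± 0.11 SE for Plk4. It moved toward Meioc-null for Aurkb (-1.59 ± 0.41 SE) and Bub1 (-0.40 ± 0.09 SE). Ttk (0.37 ± 0.18 SE) and Aurkc were not called. Without Meioc-null library 1 the values were -0.24 for Bub1 and 0.54 for Ttk.

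Shares of cells with a UMI are given beside the levels. Where a gene has few UMIs per cell, such a share depends on the level. By itself it does not tell fewer positive cells from less RNA per cell. To set depth equal, each cell was thinned to 5000 UMIs and shallower cells were left out (at most 56 per library in clusters 8 to 10). In cluster 8 a Plk1 UMI was found in 1.32% and 1.46% of wild-type cells and in 11.6% and 9.82% of Meioc-null cells, and in cluster 9 in 3.24% and 2.89% against 29.8% and 23.1%. In cluster 10 the shares were 10.2% and 8.17% against 44.2% and 49.6%, which sits beside 41.9% and 48.5% in wild-type cells of cluster 5. The level in wild-type cluster 5 was higher, at 166 and 185 CPM against 122 and 124 in Meioc-null cluster 10. Wild-type cluster 7, whose level was near the latter, had a mean share of 25.5%. Peritubular myoid cells, a mostly non-dividing type with median depths of 8406.5 to 11394 UMIs before thinning (9631 to 13240 in cluster 9), had a Plk1 UMI in 0.478% to 1.498%. The wild-type shares of cluster 8 lie within that range and read as background, whereas the Meioc-null shares of all 3 clusters lie above it. Cells with 2 or more Plk1 UMIs were at 0% of wild-type cells in clusters 8 and 9, while Meioc-null cells had 2.56% and 1.85% (cluster 8) or 6.97% and 4.59% (cluster 9). Unthinned, Plk1 shares in cluster 9 were 6.13% and 5.41% against 50.9% and 47.9%. These intervals and shares cover counting error only.

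Nek2 shares turned over between clusters as its level did. They were 18.4% and 21.2% of thinned wild-type cells against 46.3% and 36.6% of Meioc-null cells in cluster 9, and 42.6% and 39.1% against 28.7% and 27.7% in cluster 10; peritubular myoid cells had 0.378% to 2.19%. Unthinned, they were 36.3% and 34.9% against 67.4% and 63.8%, and 64.8% and 67.8% against 61.0% and 57.6%. Aurka shares in cluster 9 were 7.30% and 5.32% against 22.7% and 14.9%, or 13.9% and 11.7% against 40.8% and 33.2% unthinned, with 0.478% to 2.25% in peritubular myoid cells. Bub1 was found in nearly all cells of cluster 9 in both genotypes, at 95.68% and 95.03% against 92.1% and 94.5% (99.73% and 98.99% against 96.6% and 98.7% unthinned), against 0.637% to 2.65% in peritubular myoid cells.

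**Figure D4:**
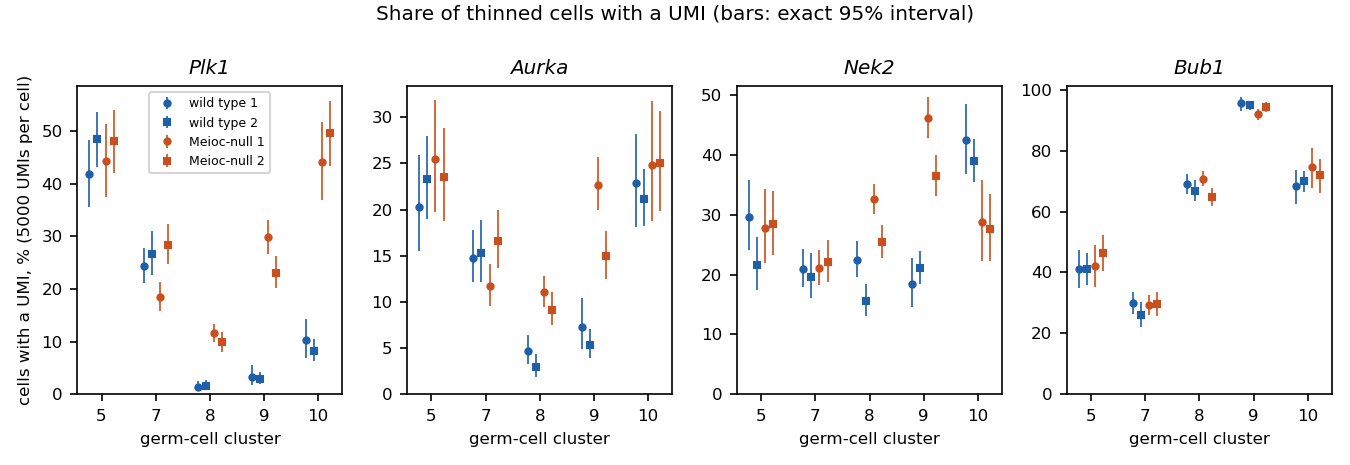
Share of cells with a UMI (vertical axis, %, after thinning to 5000 UMIs per cell) for Plk1, Aurka, Nek2 and Bub1 in clusters 5, 7, 8, 9 and 10, 1 point per library with its exact 95% binomial interval. Plk1 separates the genotypes from cluster 8 on (1.32% and 1.46% against 11.6% and 9.82%), and the Nek2 order in cluster 9 is turned in cluster 10.

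Counting how many of the 9 kinases had a UMI in the same thinned cell gave 2.15 and 2.12 per cell in wild type against 3.13 and 2.75 in Meioc-null in cluster 9. Cells with 5 or more of the 9 were 0.270% and 1.27% of wild-type cells there and 13.1% and 6.29% of Meioc-null cells. Cluster 5 had 2.76 and 2.81 per cell in wild type against 2.92 and 2.88 in Meioc-null. The means of the clusters are not of the same kinases, since Bub1 was found in nearly all cells of cluster 9. In clusters 8 and 10 the means were 1.94 and 1.79 against 2.41 and 2.17, and 2.29 and 2.19 against 2.66 and 2.50.

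Cells with a Plk1 UMI held more of the other kinases than cells without one in some clusters and nearly as many in others. In cluster 7, cells with a Plk1 UMI had 2.84 and 2.82 of the other 8 kinases in wild type against 3.08 and 2.79 in Meioc-null, while cells without one had 1.19 and 1.17 and 1.33 and 1.28. The same 4 libraries thus each held a Plk1-positive fraction that was richer in the other kinases, and a UMI for both Plk1 and Aurka was 2.20 to 3.32 times as common there as the product of their shares. In cluster 8 the Meioc-null libraries had 2.98 and 2.66 with a Plk1 UMI and 2.21 and 2.01 without. In cluster 9 they had 2.99 and 2.52 with a Plk1 UMI and 2.76 and 2.52 without, a small gap in library 1 and none in library 2. In cluster 10 this difference was also small, at 2.26 and 2.03 with a Plk1 UMI and 2.19 and 1.98 without, and the Plk1 and Aurka ratio was 1.31 and 1.02. Wild-type cells of cluster 10 had 2.28 and 2.22 with a Plk1 UMI and 2.18 and 2.10 without. In wild-type cluster 9 the values were 1.92 and 2.12 with and 2.13 and 2.09 without. In wild-type cluster 8 they were 1.7 and 1.64 with, on 10 and 11 cells, and 1.92 and 1.77 without. In cluster 10, then, cells with and without a Plk1 UMI held nearly the same number of the other kinases in both genotypes. In Meioc-null cluster 9, 248 of 248 and 175 of 176 cells with a Plk1 UMI also had one for Stra8, and 239 and 168 had one for Meioc. Nearly all cells of that cluster held both genes, and the pairs were as common as the products of their shares (ratios 1.006 and 1.002 for Stra8 and 0.994 and 0.974 for Meioc), so the counts are those of the whole cluster.

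**Figure D5:**
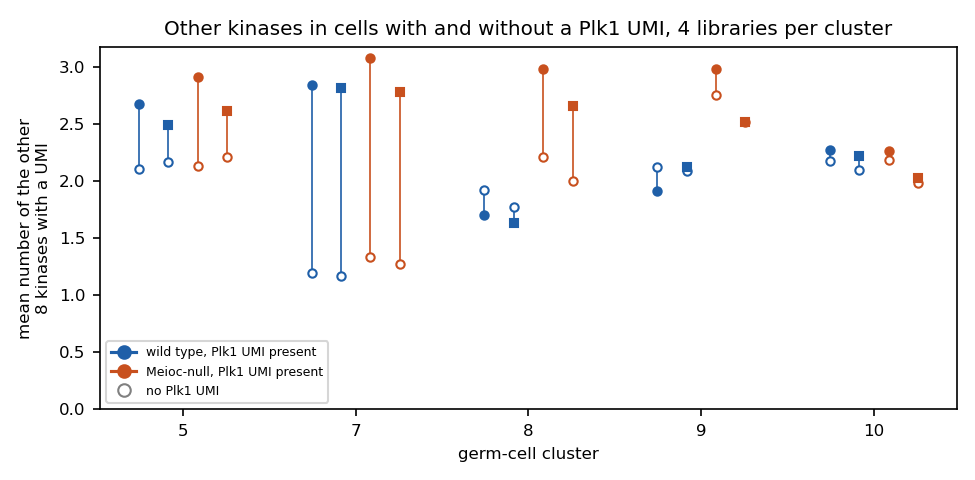
Mean number of the other 8 kinases with a UMI (vertical axis) in thinned cells with (filled) and without (open) a Plk1 UMI, in clusters 5, 7, 8, 9 and 10; each joined pair is 1 library, in the order wild type 1 and 2 (blue) and Meioc-null 1 and 2 (orange), with squares for library 2. The gap is wide in cluster 7 in all 4 libraries and narrow in cluster 10.

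The other genes of the pathway were read from 4 lists, described by counts beside the medians over all tested genes (-0.01, -0.03 and -0.01 in clusters 8, 9 and 10). The shares of all genes called there were 9.04%, 19.9% and 27.8% higher in Meioc-null and 5.94%, 16.8% and 26.1% higher in wild type. Of 38 partners and regulators of the kinases, 24 were higher in Meioc-null and 1 in wild type in cluster 8 (median log2 fold change -0.54), 24 and 2 in cluster 9 (-0.64), and 21 and 5 in cluster 10 (-0.41). Among them in cluster 10 were Cdc25c, the phosphatase that activates CDK1 (-2.52 ± 0.22 SE, edgeR adjusted p = 1.37e-09), and Ppp2r5a, a regulatory subunit of PP2A (-2.27 ± 0.24 SE, edgeR adjusted p = 3.92e-08). Genes of G2/M phase, of which 47 were tested, were higher in Meioc-null in 28, 35 and 36 cases and in wild type in 0, 1 and 3 (medians -0.51, -0.68 and -0.71). The microtubule gene Psrc1 (-5.20 ± 0.44 SE, edgeR adjusted p = 7.62e-10) and the histone chaperone gene Anp32e (-2.79 ± 0.13 SE, edgeR adjusted p = 9.06e-15) differed most in cluster 10. The lists overlap in part.

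The S-phase genes called higher in Meioc-null were no larger a share than among all genes in clusters 8 and 9, and a larger one in cluster 10. Of 43 tested in clusters 8 and 9, 3 and 6 were higher in Meioc-null, against 9.04% and 19.9% of all genes, and 0 and 12 in wild type (medians 0.07 and 0.14). In cluster 10 31 of 42 were higher in Meioc-null, against 27.8% of all genes, and 0 in wild type (median -0.68). The deubiquitinase gene Usp1 (-2.26 ± 0.12 SE, edgeR adjusted p = 1.04e-13) and the ribonucleotide reductase gene Rrm2 (-2.20 ± 0.22 SE, edgeR adjusted p = 1.14e-08) led there. Of related kinases of the same families, 2 of 14 in cluster 8 and 2 of 13 in cluster 9 were higher in Meioc-null. In wild type 0 and 1 were higher there (medians -0.27 and -0.01), against 5.94% and 16.8% of all genes. Of 13 related kinases tested in cluster 10, 6 were higher in Meioc-null and 4 in wild type (median -0.36), where 27.8% and 26.1% of all genes were. The share on the wild-type side was thus near that of all genes. The largest changes were those of Plk2 (-2.08 ± 0.17 SE, edgeR adjusted p = 2.43e-08) and Nek8 (-1.89 ± 0.43 SE, edgeR adjusted p = 0.000683). In clusters 1 to 7 these 4 lists together had at most 1 gene called per list and cluster.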

How the data were processed

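Single-cell libraries (10x 3′ v3.1) were made from 1 testis of each of 4 pups, 2 per genotype. The authors deposited raw UMI counts per gene and barcode, made with Cell Ranger 4.0.0 on GRCm38 (the mm10 reference package); Seurat served their later steps, which were not used. Here, barcodes with more than 1000 genes and under 10% mitochondrial UMIs were kept. Of these, the top doublet scores (Scrublet) were removed, at a share of 0.8% for every 1000 deposited barcodes. This took 690 of 6334 and 989 of 8494 wild-type cells, and 996 of 7550 and 692 of 7214 Meioc-null cells. At its own threshold, the caller marked 1.94% and 4.58% of wild-type and 2.72% and 4.08% of Meioc-null cells. Wild-type cells were clustered (scanpy 1.11.5, 2000 variable genes without the listed genes, 30 components, Leiden) and every cell was placed by its 30 nearest wild-type cells. The minimum of 12 germ clusters and the naming ratio of 0.75 were set after clusters were seen.

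UMIs were summed per library and cluster with at least 50 cells in each library. Genes with at least 40 UMIs were tested by genotype alone with edgeR 4.0.16 (quasi-likelihood, TMM) in R 4.3.3, Benjamini-Hochberg within the cluster; DESeq2 1.42.0 was an alternative. SE was taken from the F statistic. The tests were tried on simulated counts. Replicate number marks the littermate pair and batch in the labels; deviations of paired libraries correlated at 0.40, 0.36 and 0.24 over genes in clusters 8, 9 and 10. Shares have exact (Clopper-Pearson) 95% intervals, which cover counting error only.

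Genes named were all 9 kinases, the 5 genes most correlated with their sum and with Aurkc, and the 2 largest called changes per list in the latest shared early spermatocyte cluster; Meioc, Stra8, Gm38037 and Cenpa stand beside results and were chosen after values were seen. The kinases, lists and tests were chosen with earlier results of these data known. Gene positions are from GENCODE on GRCm38, where 32235 of 32285 identifiers matched.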

Additional observations from a re-analysis of the deposited data

Results flagged for a closer look

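The genotype effect differed between cell stages for several kinases, by the test of the difference itself. Between early spermatocytes (with cluster 11) and spermatogonia, the difference of log2 fold changes was -2.42 for Plk1, -1.14 for Aurkb, -0.51 for Bub1, 0.54 for Nek2 and 0.95 for Aurkc, where 43.0% of all genes were called. The last 3 were not called once cluster 11, which only wild-type libraries had, was left out: Bub1 was then -0.12, Nek2 turned to -0.22 and Aurkc was 0.81, near its first value. The Aurkc call was also lost without wild-type library 2 (0.64) or either Meioc-null library (0.96 and 0.999).

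Between clusters 9 and 10, compared after the values were seen, the differences were 2.13 for Nek2, 1.40 for Aurka, 1.08 for Bub1b, 0.84 for Plk1, 0.83 for Plk4, -0.40 for Bub1 and -1.59 for Aurkb, where 33.0% of all genes were called; the spread in that test was borrowed over genes without limit and is hardly that of these mice.

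Barcodes with 1000 or fewer detected genes, which no comparison used, also held kinase UMIs. Their Plk1 level, in CPM, was 44.6 and 33.9 for Meioc-null, above 27.0 and 32.2 for wild type, and their Plk4 level 105 and 75.3, above 71.4 and 57.8. Nek2 went the other way, at 33.3 and 24.7 for Meioc-null below 45.3 and 40.4 for wild type, as did Aurkc on 5 to 12 UMIs per library, and the other 5 kinases overlapped. These differences were not tested, and how many of all genes separated the libraries in this way was not counted. For 2 libraries against 2, a separation in either direction comes at a rate of 0.333 without any difference. What these barcodes hold is not known.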

How the results depend on the processing

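Of the kinase log2 fold changes in clusters 8 to 10, 296 of 328 values under alternatives kept their direction and their side of the threshold. In the interaction with spermatogonia 62 of 90 values did so and 8 changed sign. Between clusters 10 and 9 it was 41 of 45, with 2 that changed sign. Of 18 differences of shares, 8 stayed within the spread between libraries, 10 moved further and 0 changed sign. The 15 kinase calls in germ clusters became 12 to 16 when 1 library was left out and 12 to 18 under most other settings, and 8 with Bonferroni adjustment over all genes and clusters. The replicate block gave 18 calls, adding those of Plk4 in cluster 8 and Bub1 in clusters 9 and 10, and changed no other kinase call; it called 3994 genes in cluster 8 against 1836, with an infinite prior for the spread. DESeq2 called 1145 genes there, Bonferroni 43, and leaving out 1 library 620 to 888. In clusters 9 and 10 Bonferroni called 277 and 1221 genes against 4197 and 5763, and 2291 were called in cluster 9 without wild-type library 2. With called genes left out of the placing, 83.1% of Meioc-null cells and 95.8% to 96.4% of wild-type cells of clusters 8 to 10 kept their cluster. Interaction calls ran from 4 to 6, with 4 when the mouse was no term (no replicate block).

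Reversed signs were those of Bub1 in cluster 8 at -0.0018 with no count filter, -0.0039 without wild-type library 2 (range -0.0039 to 0.077 over libraries left out) and -0.010 without doublet removal, of Ttk in cluster 10 at 0.0028 without Meioc-null library 1 (range -0.46 to 0.0028), and of Aurkc between clusters 10 and 9 at 0.02 without wild-type library 1 and 0.46 without Meioc-null library 1 (range -0.56 to 0.46). In the interaction with spermatogonia, cluster 9 alone gave -1.20 for Nek2, 0.20 for Bub1 and -1.74 for Aurka, cluster 10 alone 0.59 for Bub1b, -0.18 for Aurka and 0.22 for Plk4, and clusters 9 and 10 together -0.22 for Nek2 and -0.60 for Aurka; the clusters summed differ by construction. The Plk1 share in cluster 9 was 23.4 percentage points higher in Meioc-null at 5000 UMIs per cell, 13.8 at 2500 and 43.6 unthinned, as depth sets it. The limit of 5% mitochondrial UMIs left under 50 cells in a library in clusters 8 to 10 and was not run there.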
